A study of Mus musculus with 2 samples.

Results

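Mr1 lies on mouse chromosome 1, and the genes described here are its 160 neighbours: the 80 genes listed before it and the 80 listed after it in the deposited gene order, without Mr1 itself. They are 160 of the 31053 genes of the count tables. The members are set by position alone, and their counts play no part in that rule. Hippocampal cells of untreated 7-month-old Mr1-/- mice gave 1 droplet single-cell RNA library, and cells of untreated 7-month-old Mr1+/+ mice gave the other. Both cell preparations were dissociated with a neuron isolation kit and sorted for DAPI-negative (live), Draq5-positive (nucleated) cells before 10x Genomics 5' gene expression libraries were made. The strain background, the part of Mr1 that is deleted, the number of mice in each library and the origin of the Mr1-/- line are not given in the sources used here.

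Mr1 encodes an antigen-presenting molecule related to MHC class I that displays metabolites of vitamin B synthesis to MAIT cells, an innate-like T cell type. A gene targeted in the germline is passed on with the stretch of chromosome around it, and the genes on that stretch need not be related in function to the target or to each other. The neighbours of Mr1 include a cluster of RGS genes, whose proteins speed up the switching-off of G protein signals, the glutamine synthetase gene Glul, a laminin gene, and genes of the nuclear envelope and of RNA turnover.

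The window ran from 143598800 to 162866610 on chromosome 1 of mm10, and Mr1 occupied 155127277 to 155146814 on the minus strand. In the GENCODE M21 annotation of that build all 160 members were found by gene ID, all on chromosome 1, with 0 of them out of order by start position. By gene type, 112 were protein-coding, 26 were long intergenic non-coding RNAs and 22 were antisense RNAs. The plus strand held 74 and the minus strand 86. For 72 members the annotated span overlapped that of another listed gene, so that their counts are uncertain where reads could fall to either. The farthest member before Mr1 was 11472.7 kb away and the farthest after it 7682.7 kb.

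A RefSeq promoter entry existed for 103 members. The promoters of the nearest tested gene on each side, Ier5 and Stx6, and of Rgs16, the member with the largest ratio, are shown from 250 bases before to 50 bases after the transcription start (GRCm38.p6, RefSeq). Capitals mark matches on either strand to the CCAAT box, to TATAAA of the TATA box, to the E-box CACGTG or to the cAMP-element core TGACG, and no match overlapped another in these windows. The Ier5 window is chr1:155099587-155099886 on the minus strand, the Stx6 window chr1:155158453-155158752 on the plus strand and the Rgs16 window chr1:153740103-153740402 on the plus strand.
Ier5: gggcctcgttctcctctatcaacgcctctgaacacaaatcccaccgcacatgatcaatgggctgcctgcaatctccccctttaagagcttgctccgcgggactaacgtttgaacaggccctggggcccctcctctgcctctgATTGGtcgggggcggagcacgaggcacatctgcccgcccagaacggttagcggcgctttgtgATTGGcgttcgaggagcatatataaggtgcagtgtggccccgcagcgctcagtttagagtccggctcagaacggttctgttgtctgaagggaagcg
Stx6: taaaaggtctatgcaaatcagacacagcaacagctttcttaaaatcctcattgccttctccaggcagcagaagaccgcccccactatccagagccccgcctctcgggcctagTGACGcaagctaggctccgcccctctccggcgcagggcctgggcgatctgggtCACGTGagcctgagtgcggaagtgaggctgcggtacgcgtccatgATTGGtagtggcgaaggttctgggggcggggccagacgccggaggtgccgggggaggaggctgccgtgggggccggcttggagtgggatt
Rgs16: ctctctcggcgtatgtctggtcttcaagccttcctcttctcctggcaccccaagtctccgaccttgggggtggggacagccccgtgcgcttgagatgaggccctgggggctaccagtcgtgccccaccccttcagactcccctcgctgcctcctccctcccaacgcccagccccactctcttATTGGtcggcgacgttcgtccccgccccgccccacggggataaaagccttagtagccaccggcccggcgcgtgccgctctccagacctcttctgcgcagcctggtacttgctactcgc
The Ier5 window held 2 CCAAT matches, both on the other strand as ATTGG, and none of the other motifs. In the Stx6 window there were 1 CCAAT match, also as ATTGG, 1 CACGTG and 1 TGACG, and the Rgs16 window had 1 CCAAT match as ATTGG. Among the 126 member promoters, CCAAT was present in 37.3%, against 37.4% of all 32851 promoters in the table. TATAAA was present in 2.38% of member promoters and 13.6% of all, CACGTG in 12.7% and 7.15%, and TGACG, which reads CGTCA on the other strand, in 26.2% and 20.8%. Only these exact strings were searched, so variant forms, including other TATA box sequences, were not counted in any window. A match describes letters and is not evidence of a bound site.

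Cells with at least 300 genes and at most 10% mitochondrial UMIs (unique molecular identifiers, 1 for each captured molecule) were kept after removal of called doublets, leaving 5107 of 5347 Mr1-/- barcodes and 5992 of 6410 Mr1+/+ barcodes. They carried 17334982 UMIs in the Mr1-/- library against 21462453 in the Mr1+/+ library, with medians of 2921 UMIs per Mr1-/- cell and 3162 per Mr1+/+ cell. The libraries shared 44 barcodes, 39 of them among kept cells. Clusters made without Mr1 and its neighbours gave 10 marker-named classes, of which 7 had at least 50 cells in each library. Of the neuron-like cells, 160 of 167 in Mr1-/- and 249 of 275 in Mr1+/+ were in 1 cluster led by Reln and Ndnf. Values for neuron-like cells therefore describe mainly that cluster, not hippocampal neurons in general. Of kept cells, 9.34% in Mr1-/- and 16.0% in Mr1+/+ were astrocyte-like, 29.3% in Mr1-/- and 22.4% in Mr1+/+ endothelial-like, and 14.6% in Mr1-/- and 10.7% in Mr1+/+ microglia-like. Mr1 itself had 2 UMIs in the Mr1-/- library against 130 in the Mr1+/+ library, where 53 were in astrocyte-like and 30 in microglia-like cells. No cell of either library had UMIs of 3 or more T or NK cell markers.

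Each genotype has a single library, so no result has a replicate or a test. Levels are UMIs scaled to a common class total (CPM), ratios are Mr1-/- over Mr1+/+, and the range after a ratio is an exact 95% interval that covers counting error only. The interval treats each UMI as independent, so it leaves out variation among the cells of a library. Variation among mice, tissue preparations, sorts or libraries cannot be told apart from genotype. Since the libraries differ in their mix of cells, the main ratio of a gene weighs every class alike in both libraries and is called class-adjusted here.

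Of the 160 members, 120 had at least 1 UMI in kept cells and 81 had the 50 UMIs over both libraries that were required to form a ratio. All 160 together had 92607 UMIs in the Mr1-/- library, 0.534% of its total, and 131444 in the Mr1+/+ library, 0.612% of its total. The 39 detected members below the minimum had 121 UMIs in the Mr1-/- library against 176 in the Mr1+/+ library, and none had more than 41 over both. Among them were Rgs8, with 7 UMIs in the Mr1-/- library against 19 in the Mr1+/+ library, Rgs18 with 2 in Mr1-/- and 0 in Mr1+/+, and Rgs13 with 1 in Mr1-/- and 0 in Mr1+/+. The 40 members at 0 in both libraries included Rgs21, the TNF family ligands Tnfsf4, Tnfsf18 and Fasl, the joint lubricant gene Prg4 and the germ cell gene Tdrd5. At this depth a count of 0 (up to 3 counts of the total) allows up to 0.173 CPM in the Mr1-/- library against 0.140 CPM in the Mr1+/+ library.

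Most neighbours of Mr1 had nearly the same level in the Mr1-/- and the Mr1+/+ library once the mix of cells was allowed for. The 81 tested members had a median log2 ratio of -0.05 and a median size of 0.09 regardless of sign, against -0.01 and 0.10 over all 14028 tested genes and -0.03 and 0.10 over the 746 other tested genes of chromosome 1. The middle of the members, between the 10th and the 90th percentile, ran from -0.22 to 0.18 on the log2 scale, and that of all genes from -0.23 to 0.22. Only 3 of the 81 members (3.70%) were past a fold of 1.5 in either direction. The share over all genes was 3.12%, and over tested genes of chromosome 1, the members included, it was 3.26%. Rgs16 was the 1 member past it on the higher side, where 1.61% of all genes were, and the putative transmembrane gene Teddm2 and the ankyrin repeat gene Ankrd45 were the 2 on the lower side, where 1.51% of all genes were.

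Members with few counts held most of these calls, as genes with few counts did across the genome. Of the 10 members with 50 to below 200 UMIs, 2 were past the fold, against 13% of all such genes. Of the 31 with 200 to below 1000 UMIs, 1 was (1.53% of all such genes), and of the 40 with 1000 or more UMIs, 0 were (0.447%). These 40 had a median log2 ratio of -0.063 and a median size of 0.082, against -0.014 and 0.065 over all such genes. The median size was 0.095 for the 31 members (all such genes 0.114) and 0.312 for the 10 (0.243). Below a ratio of 1 lay 51 of 81 members (63.0%), against 53.4% of all tested genes and 55.2% of the other genes of chromosome 1. Before Mr1 22 of 41 tested members were below 1, and after it 29 of 40 (72.5%) were.

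**Figure D1:**
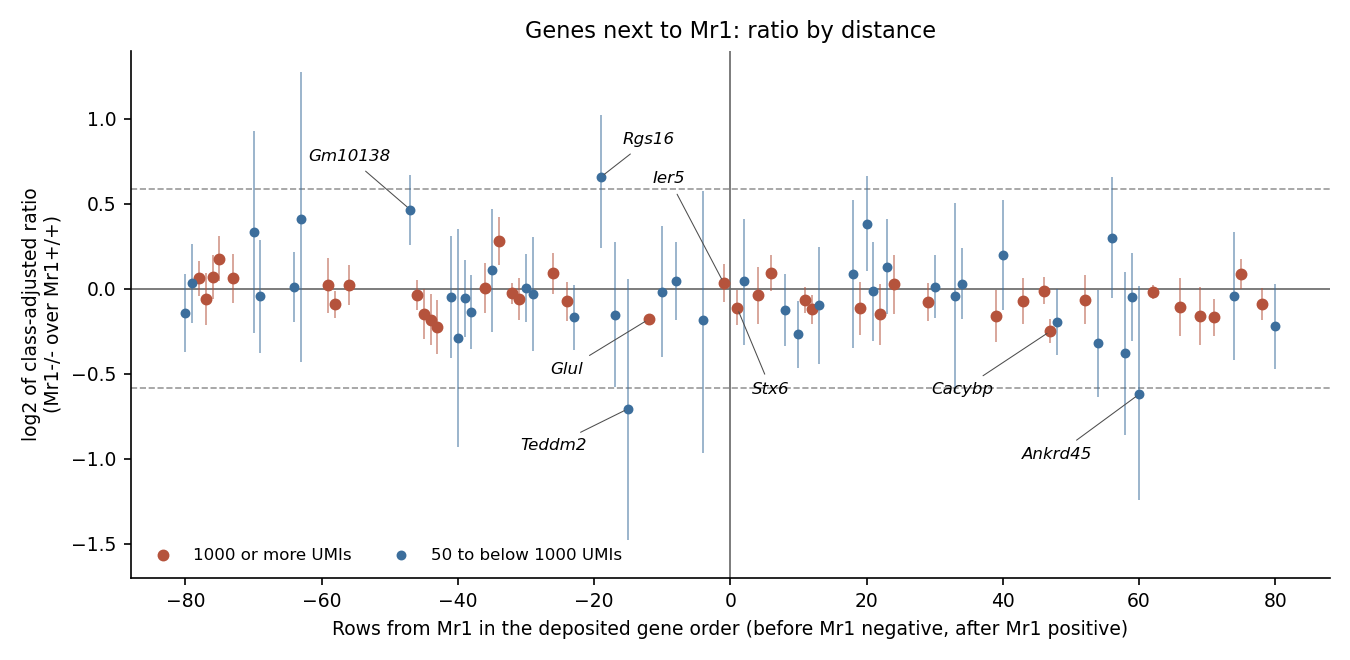
Class-adjusted log2 ratio (Mr1-/- over Mr1+/+, vertical axis) of the 81 tested members by their distance in rows from Mr1 (horizontal axis). Points are ratios, bars exact 95% counting intervals, and dashed lines a fold of 1.5. Rgs16 lies above the upper line at 0.66, Teddm2 and Ankrd45 lie below the lower line at -0.71 and -0.62, and the other points lie between the lines on both sides of Mr1.

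Distance from Mr1 did not order the ratios. The 20 tested members within 20 rows of Mr1 had a median log2 ratio of -0.08, and the medians were -0.03 at 21 to 40 rows (23 members), -0.07 at 41 to 60 rows (19) and -0.02 at 61 to 80 rows (19). Without regard to sign the medians were 0.11, 0.07, 0.15 and 0.09 in the same order. By side, the farthest bins went opposite ways. At 61 to 80 rows 8 of 11 members before Mr1 were above 1, and 7 of 8 after it were below 1. At 41 to 60 rows after Mr1, 9 of 10 were below 1. Over all tested genes 46.6% were above 1 and 53.4% below. In these 3 small bins the counting interval left out 1 for 1 of 11, 1 of 8 and 2 of 10 members, in the order given. At 41 to 60 rows before Mr1 it lay below 1 for 4 of 9 members and above 1 for 1. Among all 81 tested members it lay below 1 for 12 and above 1 for 5. The same count over all genes was not made. The plot of ratio by distance shows the 2 bins after Mr1 at its right side, with most points below 0. Their median log2 ratios were -0.131 at 41 to 60 rows and -0.097 at 61 to 80 rows. Regardless of sign their medians were 0.221 and 0.097.

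The tested genes nearest to Mr1 differed little between the libraries. Stx6, which codes for a SNARE protein of the trans-Golgi network, starts 11.9 kb from Mr1 and had 1334 UMIs in the Mr1-/- library against 1845 in the Mr1+/+ library. Its class-standardised level was 77.9 CPM in Mr1-/- and 84.2 CPM in Mr1+/+, a ratio of 0.925 (0.861 to 0.994). Ier5, an immediate early response gene 27.6 kb away on the other side, had 1327 UMIs in Mr1-/- and 1320 in Mr1+/+ and a class-standardised level of 70.6 CPM in Mr1-/- and 68.9 CPM in Mr1+/+. The Ier5 ratio was 1.03 (0.949 to 1.11). Farther out, the phosphate exporter gene Xpr1 had a class-adjusted ratio of 0.975, the acyl-CoA binding gene Acbd6 1.07, the uncharacterised gene BC034090 1.03 and the calcium channel gene Cacna1e 0.879 on 26 UMIs in Mr1-/- and 39 in Mr1+/+. The long non-coding RNAs A830008E24Rik and Gm29291 had class-adjusted ratios of 1.03 and 0.988.

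Stx6 and Ier5 differed by class, however. Stx6 was highest in oligodendrocyte-like cells, with 124.5 CPM in Mr1-/- and 158 CPM in Mr1+/+, a ratio of 0.788 (0.707 to 0.878). In microglia-like cells it had 51.6 CPM in Mr1-/- and 43.6 CPM in Mr1+/+ (1.18, 0.958 to 1.46). Ier5 was highest in microglia-like cells, with 198 CPM in Mr1-/- and 181 CPM in Mr1+/+ (1.09, 0.987 to 1.21), and had 89.7 CPM in Mr1-/- and 104 CPM in Mr1+/+ in endothelial-like cells (0.865, 0.742 to 1.01). None of these ratios was past 1.5-fold.

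The members' highest levels were spread over all 10 classes. By mean level, 14 of the 81 were highest in oligodendrocyte precursor-like cells, 12 in microglia-like, 11 each in neuroblast-like and neuron-like, 8 in fibroblast-like, 7 each in astrocyte-like and ependymal-like, 5 in endothelial-like and 3 each in oligodendrocyte-like and mural-like cells. Oligodendrocyte precursor-like cells were thus the top class of 17.3% of tested members and of 12% of all tested genes, and microglia-like cells of 14.8% and 11.1%.

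**Figure D2:**
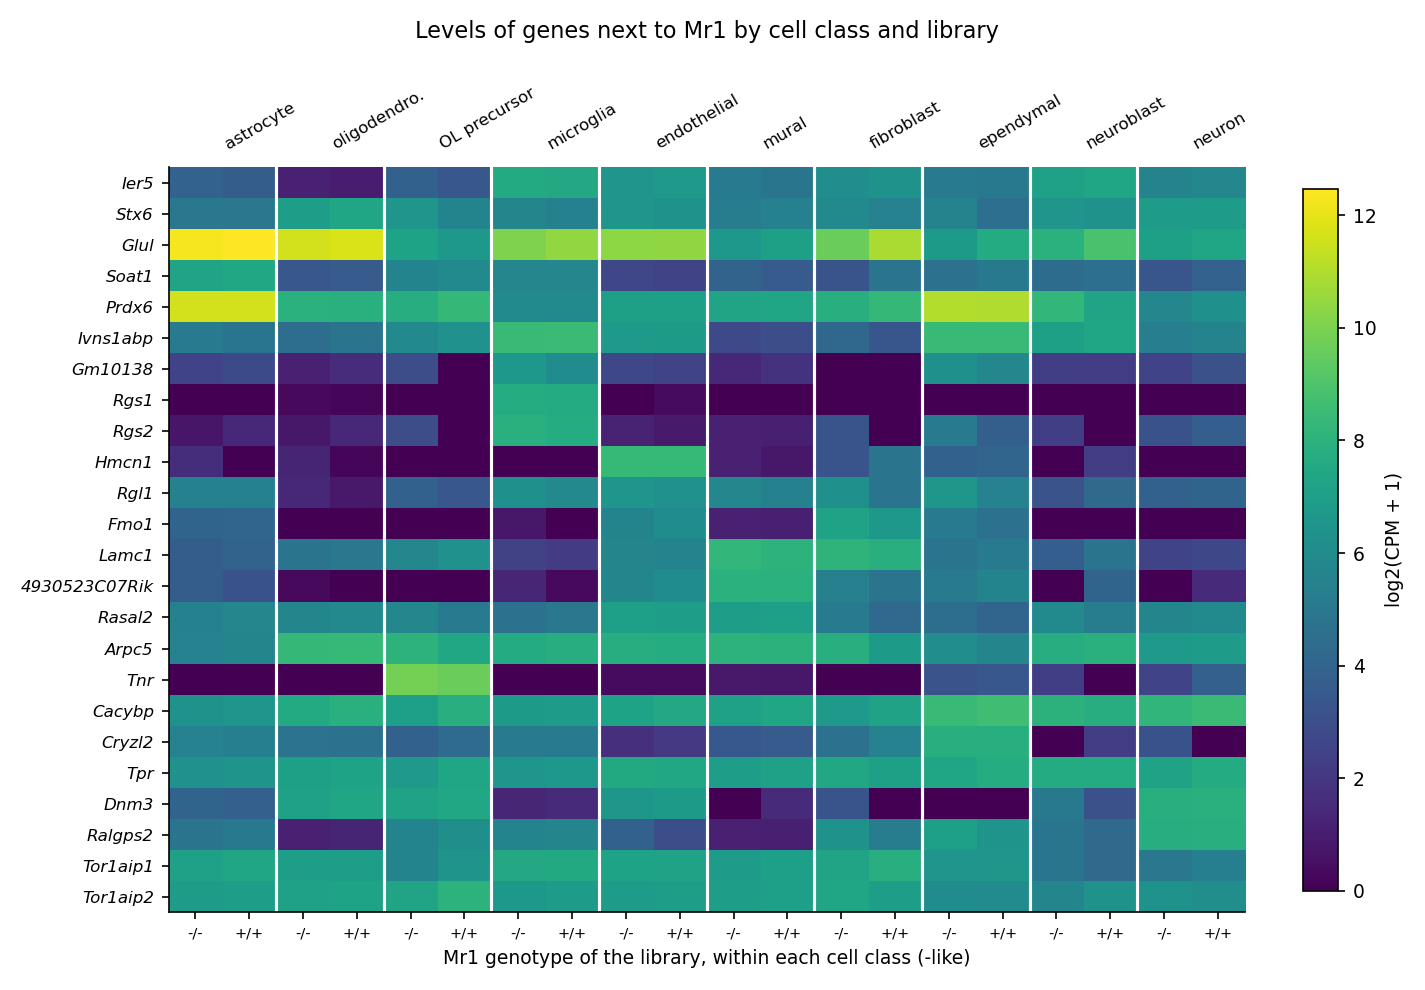
Level of 24 members (rows) in the 10 marker-named classes, as log2(CPM + 1), with the Mr1-/- library left of the Mr1+/+ library in each class. The genes were chosen to show the range of patterns after their values were seen. Paired columns are alike for most genes: Glul is bright in astrocyte-like and oligodendrocyte-like columns of both libraries, Hmcn1 in endothelial-like and Tnr in oligodendrocyte precursor-like columns.

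Among the genes of G protein and small GTPase signalling, 7 of 12 were tested, 1 was past 1.5-fold (Rgs16, higher) and the median log2 ratio was 0.06. Rgs16, a GTPase activator for G alpha subunits that lies 19 rows before Mr1, had 128 UMIs in the Mr1-/- library against 103 in the Mr1+/+ library and a class-adjusted ratio of 1.58 (1.18 to 2.03). Its span overlaps Gm28513, which had 5 UMIs in Mr1-/- and 4 in Mr1+/+. Its ratio was 1.48 with every cell weighing the same and 1.18 with 10 CPM added to both libraries. The interval of Rgs16 assumes 1 ratio common to all classes, but its class ratios lay on both sides of 1, a difference that was not tested. In endothelial-like cells Rgs16 had 69 UMIs (19.1 CPM) in Mr1-/- and 19 UMIs (5.47 CPM) in Mr1+/+, a ratio of 3.49 (2.08 to 6.14). Astrocyte-like cells went the other way, with 9 UMIs (6.15 CPM) in Mr1-/- and 45 UMIs (14.8 CPM) in Mr1+/+, a ratio of 0.415 (0.178 to 0.860). Mural-like cells had 11.5 CPM in Mr1-/- and 8.13 CPM in Mr1+/+ (1.41, 0.779 to 2.59).

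The endothelial excess of Rgs16 was found in both large endothelial-like clusters. The cluster led by Ctla2a and Slco1a4 had 38 UMIs in Mr1-/- and 8 in Mr1+/+ (17.4 CPM in Mr1-/- and 3.96 CPM in Mr1+/+), in 23 Mr1-/- and 5 Mr1+/+ cells. The cluster led by Gkn3 and Bmx had 27 UMIs in Mr1-/- and 9 in Mr1+/+ (23.0 CPM in Mr1-/- and 7.71 CPM in Mr1+/+), in 20 Mr1-/- and 9 Mr1+/+ cells. A single cell of the Mr1-/- library held 13 of the 69 UMIs and the fullest Mr1+/+ cell held 4 of 19. Without these, 56 UMIs in Mr1-/- and 15 in Mr1+/+ remained, and the ratio was 3.59 (2.002 to 6.83). Microglia-like cells had 0 Rgs16 UMIs in both libraries, where 0 counts allow up to 0.758 CPM in Mr1-/- and 0.793 CPM in Mr1+/+, and oligodendrocyte-like cells had 1 UMI in Mr1-/- and 0 in Mr1+/+. In oligodendrocyte precursor-like cells 9 UMIs in Mr1-/- came from 2 cells, with 8 in 1 of them, and Mr1+/+ had 0.

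**Figure D3:**
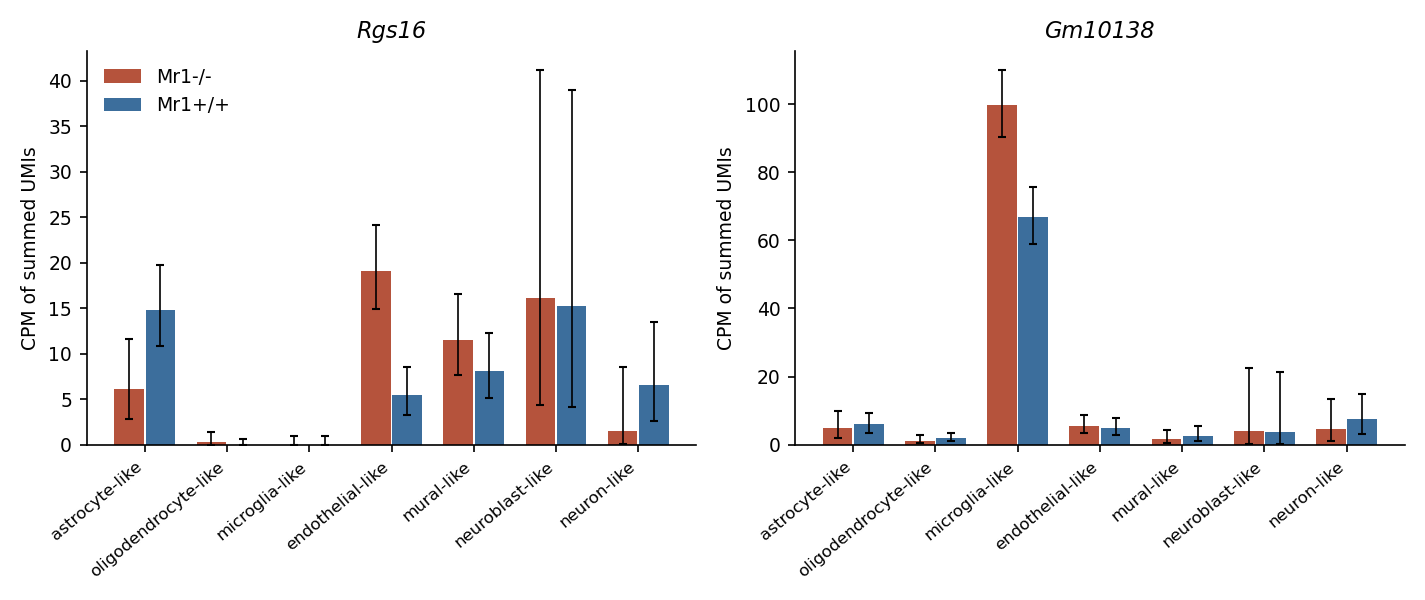
CPM of Rgs16 (left) and Gm10138 (right) in the 7 compared classes, Mr1-/- bars left of Mr1+/+ bars, with exact 95% Poisson intervals of the summed counts. Rgs16 is higher in Mr1-/- endothelial-like cells (19.1 against 5.47 CPM) and lower in Mr1-/- astrocyte-like cells (6.15 against 14.8 CPM), and Gm10138 is highest in microglia-like cells (99.8 against 66.9 CPM).

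Rgs2 and Rgs1 were highest in microglia-like cells. Rgs2 had 953 UMIs (241 CPM) in Mr1-/- microglia-like cells and 804 UMIs (212 CPM) in Mr1+/+ ones, a ratio of 1.13 (1.03 to 1.247). Rgs1 had 832 UMIs (210 CPM) in Mr1-/- and 758 (200 CPM) in Mr1+/+, with a ratio of 1.05 (0.9502 to 1.16). Rgl1, an exchange factor that activates Ral GTPases, had a class-adjusted ratio of 1.22 (1.10 to 1.34). Its microglial level was 74.8 CPM in Mr1-/- and 56.5 CPM in Mr1+/+ (1.32, 1.11 to 1.58), and its endothelial level 88.6 CPM in Mr1-/- and 76.9 CPM in Mr1+/+ (1.15, 0.976 to 1.36). Ralgps2, another Ral exchange factor, was highest in neuron-like cells, with 217 CPM in Mr1-/- and 234 CPM in Mr1+/+. Ratios of the kinase gene Abl2 (0.990) and the Ras inactivator gene Rasal2 (0.947) were close to 1 after adjustment for class.

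Of 12 genes listed for the extracellular matrix and secreted proteins 8 were tested, 6 of these were above 1 (46.6% of all tested genes were), 0 were past 1.5-fold and the median log2 ratio was 0.06. Hmcn1, which codes for hemicentin, had 328 CPM in Mr1-/- and 324 CPM in Mr1+/+ endothelial-like cells. The laminin gamma chain gene Lamc1 had 300.1 CPM in Mr1-/- and 267 CPM in Mr1+/+ mural-like cells (1.12, 1.01 to 1.248). Tnr, the tenascin of perineuronal nets, had 946 CPM in the 33 Mr1-/- and 779 CPM in the 42 Mr1+/+ oligodendrocyte precursor-like cells (1.21, 0.961 to 1.53). Astn1, a gene of glial-guided neuron migration, had 142 CPM in Mr1-/- and 123 CPM in Mr1+/+ astrocyte-like cells. In neuroblast-like cells it had 14 UMIs (56.4 CPM) in Mr1-/- and 37 UMIs (141 CPM) in Mr1+/+, the 1 call among 11 members tested there, where 18.2% of all genes were past the fold.

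Immune and stress genes had a median ratio close to 1, and Ptgs2 lay farther from it. Of 7 on the list 6 were tested, 0 were past 1.5-fold and the median log2 ratio was -0.01. Arpc5, a subunit of the actin-branching Arp2/3 complex, had a class-adjusted ratio of 0.982 (0.941 to 1.03). Pla2g4a, which codes for a cytosolic phospholipase A2, had 44.0 CPM in Mr1-/- and 48.6 CPM in Mr1+/+ microglia-like cells. Ptgs2, which codes for a cyclooxygenase, had 30 UMIs in the Mr1-/- library against 22 in the Mr1+/+ library (1.33, 0.741 to 2.42).

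Glul, whose product makes glutamine from glutamate, had a ratio below 1 in each of the 4 classes that passed the filter for it. It had 30290 UMIs in Mr1-/- and 50232 in Mr1+/+, which was 0.747 per UMI sequenced without regard to class and 0.883 (0.870 to 0.896) class-adjusted. In astrocyte-like cells its level was 5085 CPM in Mr1-/- and 5667 CPM in Mr1+/+ (0.897, 0.873 to 0.922), and in oligodendrocyte-like cells 3170 CPM in Mr1-/- and 3514 CPM in Mr1+/+ (0.902, 0.883 to 0.922). In microglia-like cells it was 1067 CPM in Mr1-/- and 1393 CPM in Mr1+/+ (0.766, 0.735 to 0.798), with 0.765 and 0.764 in the 2 microglia-like clusters. Endothelial-like cells differed least, with 1307 CPM in Mr1-/- and 1337 CPM in Mr1+/+ (0.978, 0.939 to 1.02).

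Other astrocyte transcripts outside astrocyte-like cells were lower in the Mr1-/- library in some classes and not in others. The 10 astrocyte markers summed to 178 CPM in Mr1-/- and 216 CPM in Mr1+/+ microglia-like cells (0.823), to 47.1 CPM in Mr1-/- and 70.0 CPM in Mr1+/+ endothelial-like cells (0.672), and to 29.9 CPM in Mr1-/- and 70.6 CPM in Mr1+/+ mural-like cells (0.424). In oligodendrocyte-like cells the ratio of the sums was 0.860, in ependymal-like 0.832, in neuroblast-like 0.952, in oligodendrocyte precursor-like 1.01 and in neuron-like cells 1.09. Within astrocyte-like cells the same markers had 22320 CPM in Mr1-/- and 22785 CPM in Mr1+/+ (0.980). In mural-like cells Glul had 99.6 CPM in Mr1-/- and 136 CPM in Mr1+/+ (0.735). In the few fibroblast-like cells it had 820.1 CPM in Mr1-/- and 1916 CPM in Mr1+/+ (0.428), where the astrocyte markers had 600.3 CPM in Mr1-/- and 1419 CPM in Mr1+/+ (0.423). The part of such transcripts in the Glul ratios of these classes was not tested.

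Prdx6, a peroxiredoxin gene that is also high in astrocyte-like cells, differed less. It had 3112 CPM in Mr1-/- and 3161 CPM in Mr1+/+ astrocyte-like cells (0.985, 0.9502 to 1.02) and 2058 CPM in Mr1-/- and 2030 CPM in Mr1+/+ ependymal-like cells. Its class-adjusted ratio was 0.987 (0.960 to 1.02), against 0.716 when all cells were summed without regard to class. The number of Glul UMIs per Prdx6 UMI was 1.63 in Mr1-/- and 1.79 in Mr1+/+ astrocyte-like cells, 12.7 in Mr1-/- and 14.6 in Mr1+/+ oligodendrocyte-like cells, and 18.0 in Mr1-/- and 23.3 in Mr1+/+ microglia-like cells. Endothelial-like cells had 9.76 in Mr1-/- against 9.81 in Mr1+/+, and neuron-like cells, where Glul did not pass the filter, 2.51 in Mr1-/- against 2.14 in Mr1+/+. The 6 metabolism and transport genes on the list were all tested and all below 1. Of all tested genes 53.4% and of tested members 63.0% were below 1. The median log2 ratio of the 6 was -0.10, with 0 past 1.5-fold. Npl, a sialic acid lyase gene, had 97.3 CPM in Mr1-/- and 112 CPM in Mr1+/+ microglia-like cells (0.866, 0.753 to 0.997). The mitochondrial ribosome gene Mrps14 had a class-adjusted ratio of 0.993.

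Of 12 genes listed for RNA handling, chromatin and protein turnover 10 were tested, 8 of these were below 1 (53.4% of all tested genes and 63.0% of tested members were), 0 were past 1.5-fold and the median log2 ratio was -0.12. Rnf2, a Polycomb ubiquitin ligase gene, had a class-adjusted ratio of 0.856 (0.767 to 0.956) and its lowest class ratio was in endothelial-like cells, at 26.0 CPM in Mr1-/- and 37.2 CPM in Mr1+/+ (0.700, 0.531 to 0.921). Cop1, a ubiquitin ligase gene, had 30.04 CPM in Mr1-/- and 42.5 CPM in Mr1+/+ oligodendrocyte-like cells (0.707, 0.566 to 0.878). Tpr, a nuclear pore basket gene, had 193 CPM in Mr1-/- and 170 CPM in Mr1+/+ endothelial-like cells (1.13, 1.01 to 1.27), but 145 CPM in Mr1-/- and 204 CPM in Mr1+/+ neuron-like cells (0.709, 0.551 to 0.907). Its span overlaps BC003331 and that of Rnf2 overlaps Trmt1l.

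Of 10 genes listed for the ER, Golgi, nuclear envelope and trafficking 9 were tested and 8 of these were below 1. Over all tested genes 53.4% and over tested members 63.0% were below 1. The median log2 ratio of the 9 was -0.12, with 0 past 1.5-fold. Cacybp codes for a calcyclin-binding protein, which is known from ubiquitin-dependent protein turnover rather than from these compartments. It had 2687 UMIs in Mr1-/- and 3987 in Mr1+/+ and a class-adjusted ratio of 0.842 (0.801 to 0.884). Class by class the ratio was below 1 in 6 of 7, with 194 CPM in Mr1-/- and 242 CPM in Mr1+/+ oligodendrocyte-like cells, in endothelial-like cells 149 CPM in Mr1-/- against 185 CPM in Mr1+/+, and in neuron-like cells 292 CPM in Mr1-/- against 365 CPM in Mr1+/+. The exception was neuroblast-like cells, with 63 UMIs in Mr1-/- and 57 in Mr1+/+. Tor1aip1 and Tor1aip2, neighbouring genes whose products bind torsins at the nuclear envelope and the ER, had class-adjusted ratios of 0.955 and 0.920. Soat1, which esterifies cholesterol, had 156 CPM in Mr1-/- and 180 CPM in Mr1+/+ astrocyte-like cells (0.867, 0.740 to 1.01).

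Among the 10 genes listed for germ cells, cilia or epithelia, 2 were tested, and both were below 1 (53.4% of all tested genes were). Of the 2, Teddm2 was past 1.5-fold. Teddm2 had 23 UMIs in Mr1-/- and 50 in Mr1+/+ (0.613, 0.359 to 1.04), and its span overlaps the start of Glul on the opposite strand. The 91 members on none of the lists had 33 tested, with a median log2 ratio of -0.05 and 1 past 1.5-fold. That 1 was Ankrd45, with 36 UMIs in Mr1-/- and 66 in Mr1+/+ (0.650, 0.423 to 1.01). Its UMIs were mostly in ependymal-like cells, 23 in Mr1-/- and 24 in Mr1+/+, and in neuron-like cells, 5 in Mr1-/- and 29 in Mr1+/+. The intervals of both genes took in 1, and with doublets kept neither was past the fold (Teddm2 0.682, Ankrd45 0.777).

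Gm10138, an antisense RNA gene 47 rows before Mr1, had the highest ratio among the 53 members that passed the count filter in microglia-like cells. It had 395 UMIs (99.8 CPM) in Mr1-/- and 253 UMIs (66.9 CPM) in Mr1+/+ microglia-like cells, a ratio of 1.49 (1.27 to 1.76), and 467 UMIs in Mr1-/- and 340 in Mr1+/+ over all cells. Ependymal-like cells had 75.8 CPM of it in Mr1-/- and 54.0 CPM in Mr1+/+. The ratio was 1.502 in the microglia-like cluster led by Ccl4 and Cx3cr1 and 1.48 in the one led by Tmem119 and Gpr34. Gm10138 overlaps the start of Ivns1abp, an influenza NS1-binding protein gene, on the other strand, and the use of strand in counting was not given in the sources used here. Ivns1abp had 1400 UMIs (354 CPM) in Mr1-/- and 1351 UMIs (357 CPM) in Mr1+/+ microglia-like cells, a ratio of 0.991.

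Within single classes the share of members past 1.5-fold was below that of all genes in 6 of 7 classes, and in neuron-like cells it was 9.68%. In astrocyte-like cells 2 of 46 were past 1.5-fold, against 5.20% of all genes: the antisense gene Gm29514 at 1.57 (34 UMIs in Mr1-/- and 45 in Mr1+/+) and Rgs16 on the lower side. In oligodendrocyte-like cells 0 of 41 were (2.73% of all genes), and in microglia-like cells 0 of 53 were (2.87%). Endothelial-like cells had 1 of 49 (3.91%), Rgs16. Mural-like cells had 1 of 42 (4.15%), the zinc finger gene Zbtb37 on 18 UMIs in Mr1-/- and 33 in Mr1+/+. In neuron-like cells 3 of 31 were past it (8.26%): Trove2, which codes for the Ro RNA-binding protein, was higher with 78.5 CPM in Mr1-/- and 49.6 CPM in Mr1+/+, and 1700025G04Rik and the RNA decay gene Rc3h1 were lower, 1700025G04Rik on 21 UMIs in Mr1-/- and 52 in Mr1+/+ and Rc3h1 on 20 in Mr1-/- and 52 in Mr1+/+.

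Among the members at the ends of the class ratios, 6 more stayed within 1.5-fold in each class that passed the filter. Cdc73, a subunit gene of the PAF1 complex of transcription elongation, had 10.6 CPM in Mr1-/- and 15.3 CPM in Mr1+/+ oligodendrocyte-like cells (0.691, 0.471 to 0.998). In the same class Klhl20, an adaptor gene of a ubiquitin ligase, had a ratio of 0.698 (0.453 to 1.06), but in astrocyte-like cells 1.47 (0.813 to 2.63). Qsox1, which codes for a sulfhydryl oxidase, had 1.33 (0.902 to 1.95) in oligodendrocyte-like and 0.762 (0.498 to 1.16) in microglia-like cells. Fam20b, a xylose kinase gene of proteoglycan synthesis, had 9.13 CPM in Mr1-/- and 6.52 CPM in Mr1+/+ oligodendrocyte-like cells (1.402, 0.875 to 2.24). Swt1, an RNA endoribonuclease gene, had 50.8 CPM in Mr1-/- and 35.5 CPM in Mr1+/+ neuron-like cells (1.43, 0.868 to 2.34). The RNA helicase gene Dhx9 was highest in neuroblast-like cells, with 173 CPM in Mr1-/- and 148 CPM in Mr1+/+ (1.17, 0.739 to 1.85).

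**Figure D4:**
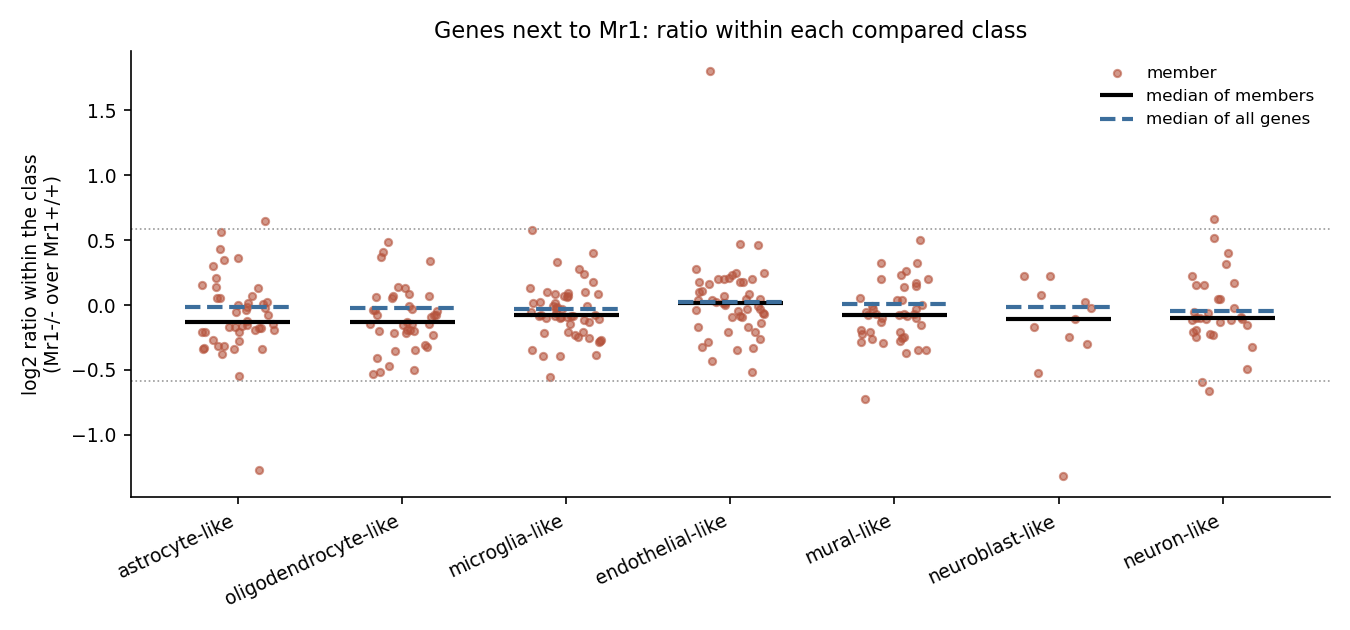
Log2 ratio (Mr1-/- over Mr1+/+) of each member that passed the count filter of a class (points), in the 7 compared classes, with the median of those members (black) and of all genes that passed (dashed blue). Dotted lines mark 1.5-fold. The black lines lie at -0.13 in astrocyte-like and oligodendrocyte-like cells, where the blue lines lie at -0.02, and both lie at 0.02 in endothelial-like cells.

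The class medians of the members were below those of all genes in 7 of 7 classes. On the log2 scale the member median was -0.13 in astrocyte-like cells (all genes -0.02), -0.13 in oligodendrocyte-like (-0.02), -0.08 in microglia-like (-0.03), -0.07 in mural-like (0.01), -0.11 in neuroblast-like (-0.01) and -0.10 in neuron-like cells (-0.04). In endothelial-like cells the medians were nearly the same, 0.0194 for members and 0.0206 for all genes. Regardless of sign, the member median was larger in astrocyte-like (0.184, all genes 0.155), oligodendrocyte-like (0.156, 0.119), endothelial-like (0.168, 0.137) and mural-like cells (0.180, 0.150). It was smaller in microglia-like (0.103, all genes 0.126), neuroblast-like (0.222, 0.271) and neuron-like cells (0.158, 0.195). Of the 32 members that passed the filter in at least 5 classes, 2 were below 1 in every class they passed in, which is 6.25%, against 4.83% of 5137 genes. They were the centrosome gene Cep350, at 0.831 class-adjusted, and Rabgap1l, a Rab GTPase activator gene, at 0.875. In the higher direction 0 of 32 were, against 3.37% of genes.

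Other members that led a class, except Fmo1, differed little there. Dnm3, a dynamin gene, had 222 CPM in Mr1-/- and 239 CPM in Mr1+/+ neuron-like cells, and Vamp4, a SNARE gene, had a class-adjusted ratio of 1.06. The long non-coding RNA 4930523C07Rik had 252 CPM in Mr1-/- and 251 CPM in Mr1+/+ mural-like cells, but 52.3 CPM in Mr1-/- and 65.7 CPM in Mr1+/+ endothelial-like cells (0.797, 0.653 to 0.970). Cryzl2 had 225 CPM in Mr1-/- and 235 CPM in Mr1+/+ ependymal-like cells. Fmo1, a flavin monooxygenase gene and the last of the 80 rows after Mr1, was highest in fibroblast-like cells, on 17 UMIs in Mr1-/- and 11 in Mr1+/+ (1.45, 0.639 to 3.42), and had 48.2 CPM in Mr1-/- and 65.1 CPM in Mr1+/+ endothelial-like cells (0.740, 0.604 to 0.906).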

How the data were processed

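Deposited values were raw UMI counts per gene and barcode, made by the authors. Cell Ranger 3.1.0 is named per the file headers, and Cell Ranger 5.1.0, STAR and mm10 per the submitters' processing notes. Strand use and the annotation release were not given in the sources used here.

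Cells were filtered as in the report, Scrublet doublets removed (expected rate 0.05; 171 of 5278 Mr1-/- and 335 of 6327 Mr1+/+ cells), and the rest clustered without Mr1 and the members (2000 variable genes, 30 components, 15 neighbours, Leiden resolution 1.0, seed 7; 24 clusters). A cluster took the class with the highest mean log2 fold of its markers if this was above 1, at least 3 of them were seen in at least 10% of its cells and no other class had more markers among its top 10 genes. A cluster with a far lower median UMI count than its library and none of its markers in the top 10 stayed unnamed. Rebuilt names may differ from the study's. The software was Python 3.11.15, scanpy 1.11.5, leidenalg 0.10.2, SciPy 1.17.1 and matplotlib 3.10.9.

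UMIs were summed per class and library. Class-adjusted ratios are Mantel-Haenszel ratios over classes, and their calculation was checked on simulated counts. The simulation drew Poisson counts with 1 ratio common to all classes, as the interval assumes. It therefore does not cover counts clumped in single cells or ratios that differ by class. A class ratio required 50 UMIs in the class and 0.2 times the CPM of the gene's top class, to limit free RNA. Per-class intervals are exact conditional binomial intervals. The rule for the members uses position alone, but that rule, the role lists and the markers were chosen with earlier results of these data known. Named genes were the 10 members with the most UMIs, those past 1.5-fold, the 4 nearest tested on each side, up to 2 highest and 2 lowest in each class and the 2 with the most UMIs among those highest in a class. Rgs1, Npl, Cop1, Rasal2, Soat1, Rabgap1l, Pla2g4a, Ptgs2 and the members given for a count of few or 0 UMIs were added after their values were seen. Promoters come from RefSeq (GRCm38.p6) and positions from GENCODE M21, in which 30934 of 31053 genes matched.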

Additional observations from a re-analysis of the deposited data

Results flagged for a closer look

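Rgs16 was on opposite sides of 1 in different cell classes. Its ratio (Mr1-/- over Mr1+/+) was 3.49 in endothelial-like cells and 0.415 in astrocyte-like cells, and the counting interval of each left out 1. The difference between the classes was not tested, since each genotype has 1 library.

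Tpr also had intervals on opposite sides of 1, with a ratio of 1.13 in endothelial-like cells and 0.709 in neuron-like cells. This difference was not tested either.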

How the results depend on the processing

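The count of 3 members past 1.5-fold was 5 with a minimum of 20 UMIs (5.81%, all genes 6.06%) and 7 without adjustment for class. It was 1 with a minimum of 200 UMIs (1.41%, all genes 0.941%) and with doublets kept (1.23%, all genes 3.27%). It was also 1 with every cell weighing the same (1.23%, all genes 3.60%) and with cells thinned to 1500 UMIs (1.35%, all genes 2.98%). Thinning left out 525 Mr1-/- and 844 Mr1+/+ cells. With no minimum and 10 CPM added to both libraries it was 0 (all genes 0.164%). It was 8 with the smaller of the other folds tried (9.88%, all genes 11.4%) and 0 with a fold of 2 (all genes 0.784%). Without adjustment for class 8.64% of members and 7.36% of all genes were past the fold. The median log2 ratio of the members was -0.0088, and the median regardless of sign 0.0383 (all genes 0.0375), with no minimum and 10 CPM added. The median regardless of sign was 0.199 without adjustment for class (all genes 0.151) and 0.124 after thinning (all genes 0.115). For the members 41 to 80 rows away the median log2 ratio of -0.05 was -0.0078 with 10 CPM added and -0.0934 without adjustment for class.

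Within classes, the count in microglia-like cells (0) was 1 with median-of-ratios scaling and with classes from each cell's own markers, and 3 with every cell weighing the same. That weighting gave 1 in oligodendrocyte-like and 3 in mural-like cells. The neuroblast-like count was 0 with classes from single-cell markers, and the neuron-like count was 1 with doublets kept. A minimum of 200 UMIs gave 0 in astrocyte-like, endothelial-like, mural-like and neuron-like cells. The causes were not tested, beyond the smaller set of genes that a higher minimum leaves. Ratios were recomputed only for members named for the most UMIs, for being past 1.5-fold or for being nearest to Mr1. Of these 189 ratios, 180 stayed within the interval of the main ratio. A change of direction was looked for only in the members past 1.5-fold, and 0 of their ratios changed direction. Ratios of other members crossed 1, such as that of BC034090, between 0.787 and 1.09. The Rgs16 ratio over all classes ran between 1.18 and 1.95 across these settings. Rgs16 without its fullest cells, chosen after seeing the data, is in the report. No paired analysis was possible because each genotype has 1 library. Depth limits the 39 detected members below 50 UMIs, for which no ratio is given.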

Other observations

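Oligodendrocyte transcripts also differed between the libraries outside their own class. The 10 oligodendrocyte markers summed to 743 CPM in Mr1-/- and 1086 CPM in Mr1+/+ endothelial-like cells, and to 160.5 CPM in Mr1-/- and 254 CPM in Mr1+/+ microglia-like cells. In neuroblast-like cells they summed to 92.6 CPM in Mr1-/- and 2101 CPM in Mr1+/+. These were 23 UMIs in the 54 Mr1-/- cells and 552 in the 66 Mr1+/+ cells, and their spread over cells was not examined. In neuron-like cells they summed to 514 CPM (334 UMIs) in Mr1-/- and 137 CPM (146 UMIs) in Mr1+/+. Within oligodendrocyte-like cells they had 61240 CPM in Mr1-/- and 61633 CPM in Mr1+/+. Stx6, which was highest in oligodendrocyte-like cells, had 112 CPM in Mr1-/- and 120 CPM in Mr1+/+ neuron-like cells.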
